A study of Danio rerio with 6 samples.

Results

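Atrial cardiomyocytes (CMs) sorted from zebrafish hearts at 48 hours post fertilization (hpf) gave RNA libraries in which 9 genes of macrophages and other myeloid cells were well above the counting floor, and at 72 hpf the same genes were at or near 0 in 2 of 3 libraries. The 9 genes are spi1b, csf1ra, ptprc, ptpn6, mpeg1.1, ncf1, coro1a, lcp1 and plek. They are 9 of the 23000 genes in the deposited count table, were found there by their symbols, and each symbol matched 1 gene. They were chosen by their counts at both stages, as leukocyte genes known to be present at 48 hpf and low at 72 hpf, so their stage difference and their levels are given as a description and carry no test. All 9 passed the low-count filter, which asked for more than 5 normalized counts on average across libraries and which these genes passed through their 48 hpf counts.

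The study sequenced sorted atrial CMs in bulk to ask how their transcriptome changes as the atrial wall begins to form. Both groups were wild-type embryos or larvae carrying the same 3 transgenic reporters, myh6:mTagBFP2 for atrial CMs, myh7:mCherry-NTR for ventricular CMs and 7XTCF-Sia:eGFP for Wnt/β-catenin activity. They differed in age, with 3 libraries at 48 hpf and 3 at 72 hpf, and no treatment was applied to either group. Hearts were pooled and dissociated, and live cells with high mTagBFP2, no eGFP and little or no mCherry were collected. The gate used no leukocyte marker. The paper reports that atrial CMs at these stages were scarce and fragile, so several sorting sessions were needed. It gives a sort purity short of complete, and RNA quality checks were left out because little RNA was available. Whether a gene without reads was absent from the sorted cells or missed among so few cells was not tested. Replicates 1 and 2 of both stages were sorted on a FACSAria and a BigFoot instrument and replicate 3 of both stages on the BigFoot only. The labels do not describe the libraries as separate clutches, so any p-value here measures the spread between these pools of cells. In bulk RNA, fewer cells of a type and less RNA per cell cannot be told apart.

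Macrophages are phagocytes of the innate immune system. In zebrafish embryos the first of them arise before definitive blood stem cells, spread through the tissues and take up debris and microbes. The transcription factor Pu.1 and the Csf1 receptor act in the macrophage lineage. Like other leukocytes, macrophages carry the phosphatase CD45 on their surface and a set of actin-binding proteins that serve migration and phagocytosis.

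The libraries held between 3577234 and 5629941 counts, with a median of 4723024 at 48 hpf and 4464674 at 72 hpf. A floor of 3 counts was worth 0.533 to 0.839 CPM, the counts scaled to a library total of 1e6. It covers counting error only, as do all intervals given here, because the reads carry no molecular identifiers. myh6, the atrial myosin heavy chain gene, had 6919 to 7877 counts, and nr2f1a, an atrial transcription factor, had 1401 to 2047. The 6 atrial CM markers in the table summed to 2746 to 4001 CPM, although nr2f2 among them was sparse and uneven, with 0 to 132 counts, and removal of duplicate reads can limit counts of genes as abundant as myh6. Of ventricular markers, irx4a had 0 counts in all 6 libraries, but myh7, the gene whose reporter the gate kept low, had 4851 to 5228 counts at 48 hpf and 2359 to 3115 at 72 hpf, and myh7l had 769 to 1173 and 91 to 137. DESeq2 called both lower at 72 hpf (adjusted p = 0.0019 and 1.1e-19) and edgeR called neither (adjusted p = 0.399 and 0.141), and their part in the levels of the 9 genes was not tested. The ventricular marker hey2 had a higher estimate at 72 hpf, with 0, 39 and 0 counts against 41, 26 and 74. irx1a, also a ventricular marker, was uneven, with 46, 46 and 12 counts against 2, 2 and 42. Neither tool called hey2 or irx1a. Of these libraries, 2 stood apart in the summed level of red cell genes. Replicate 3 at 48 hpf had 1061 counts of slc4a1a, the red cell anion exchanger, and replicate 2 at 72 hpf had 174, against 0 in each of the other 4. These same 2 libraries had the highest summed level of the 9 genes at their stage.

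Summed over the 9 genes, the libraries at 48 hpf held 1903, 2443 and 3649 counts in replicates 1, 2 and 3, and those at 72 hpf held 7, 320 and 0. Every 48 hpf library was thus above every 72 hpf library, and replicate 2 held nearly all of the 72 hpf counts. Scaled to the library total, the sum was 608 ± 329 CPM (SD, n = 3) at 48 hpf and 24.4 ± 40.9 CPM (SD, n = 3) at 72 hpf, a log2 ratio of -4.64. Without replicate 2 at 72 hpf the log2 ratio was -9.62. All 9 genes were above the floor in each 48 hpf library, against 1, 5 and 0 of them in replicates 1, 2 and 3 at 72 hpf.

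**Figure D1:**
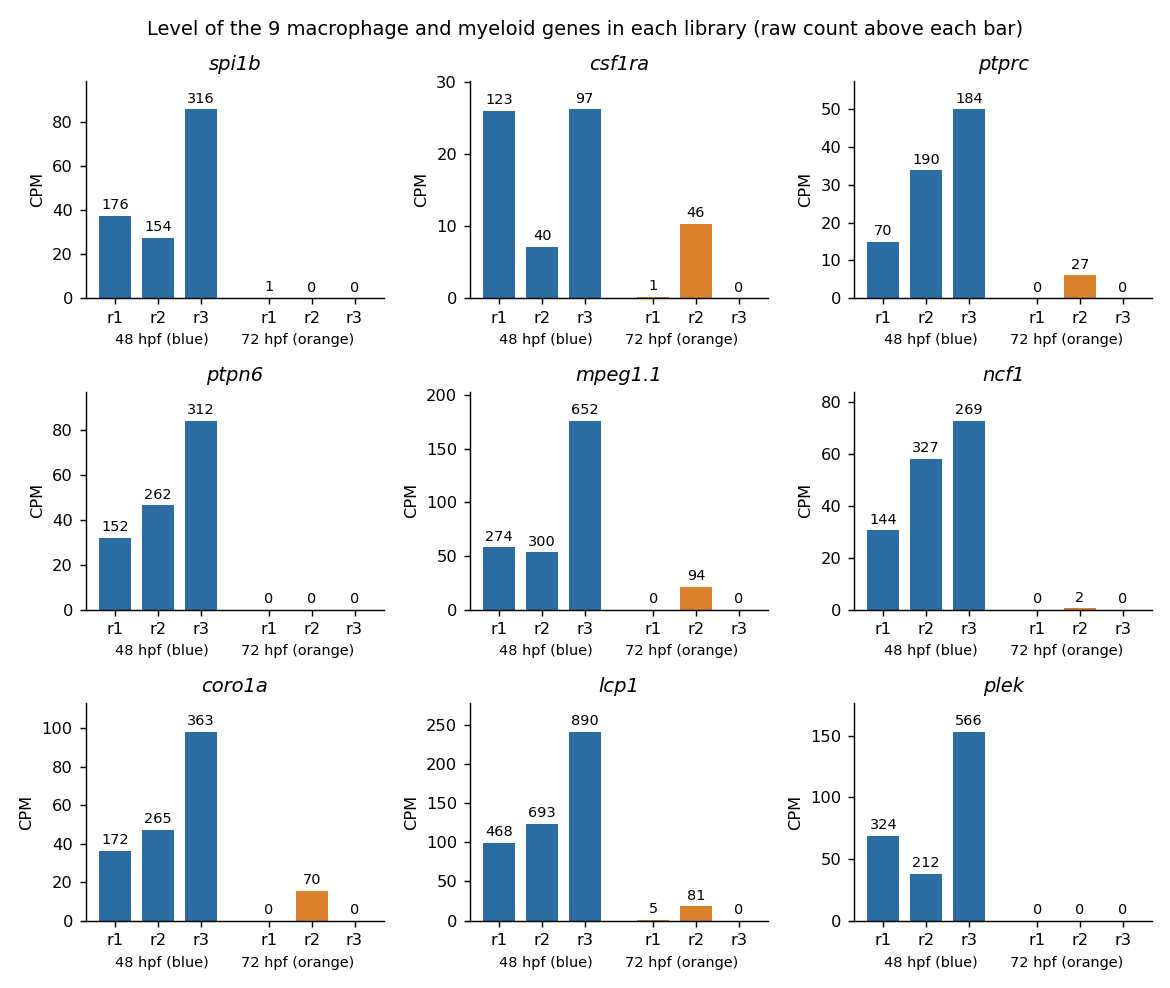
Level of each of the 9 genes in CPM (vertical axis, 1 panel per gene with its own scale) in the 3 libraries at 48 hpf (blue) and the 3 at 72 hpf (orange), with the raw count written above each bar. All 9 genes have bars in every blue library, and among the orange bars replicate 2 is the one that is visible, in 5 genes.

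spi1b encodes Pu.1, the transcription factor that directs myeloid cell fate, and lies on chromosome 7 of danRer11 from 32644673 to 32659353. In replicates 1, 2 and 3 it had 176, 154 and 316 counts at 48 hpf, compared with 1, 0 and 0 counts at 72 hpf. Its groups did not overlap, and a single read at 72 hpf stood against 646 at 48 hpf. The ratio of the pooled counts, scaled to the library totals, was 579 with an exact 95% counting interval of 104 to 22890. The end of spi1b overlaps si:ch73-314g15.3 on the opposite strand over 528 bases, and that gene had 42, 19, 37, 66, 73 and 0 counts over the 6 libraries, a different pattern from that of spi1b.

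csf1ra, on chromosome 14 from 3143337 to 3180947, encodes one of the receptors for Csf1 and Il34, which macrophages use and which zebrafish xanthophores, the yellow pigment cells, also use. Its counts at 48 hpf were 123, 40 and 97, and those at 72 hpf were 1, 46 and 0. It was the one gene of the 9 whose stages overlapped, since replicate 2 at 72 hpf, at 10.3 CPM (exact 95% counting interval 7.54 to 13.7), was above replicate 2 at 48 hpf, at 7.11 CPM (5.08 to 9.68), although these counting intervals overlap. Its mean at 48 hpf was 19.8 ± 11.0 CPM (SD, n = 3), against 3.51 ± 5.89 CPM (SD, n = 3) at 72 hpf, and the pooled ratio was 4.96 (3.62 to 6.91).

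ptprc encodes CD45, the receptor tyrosine phosphatase shared by nearly all leukocytes, on chromosome 22 from 22977268 to 23067859. It had 70, 190 and 184 counts at 48 hpf against 0, 27 and 0 at 72 hpf. Replicate 1 was the low library at 48 hpf, and replicate 2 alone had reads at 72 hpf. The pooled ratio was 14.7 (9.99 to 22.6).

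ptpn6 encodes Shp1, a cytoplasmic tyrosine phosphatase that restrains signalling from immune receptors, on chromosome 16 from 31720042 to 31756963. It had 152, 262 and 312 counts at 48 hpf and 0 in all 3 libraries at 72 hpf. plek encodes pleckstrin, a protein kinase C substrate of mammalian platelets and leukocytes, on chromosome 13 from 1070705 to 1085973. It had 324, 212 and 566 counts at 48 hpf and 0 in all 3 libraries at 72 hpf. These are the genes with no read at the later stage, also in replicate 2. Against a floor of 3 counts over the whole 72 hpf group, ptpn6 was at least 217-fold higher and plek at least 329-fold higher at 48 hpf.

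mpeg1.1 encodes a perforin-like protein of the phagosome and is the gene most used to mark zebrafish macrophages. It lies on chromosome 8 from 29710110 to 29713621. It had 274, 300 and 652 counts at 48 hpf against 0, 94 and 0 at 72 hpf. Of the 9 genes it had the most counts in replicate 2 at 72 hpf, and its groups still did not overlap. The mean was 95.9 ± 69.8 CPM (SD, n = 3) at 48 hpf and 7.02 ± 12.2 CPM (SD, n = 3) at 72 hpf, and the pooled ratio was 11.7 (9.47 to 14.6).

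ncf1 encodes p47phox, the cytosolic organizer of the phagocyte NADPH oxidase, on chromosome 5 from 61432541 to 61445697. Its counts at 48 hpf were 144, 327 and 269, and those at 72 hpf were 0, 2 and 0. Those 2 reads give a pooled ratio of 331 with an interval of 91.4 to 2742. ncf1 was thus close to spi1b, ptpn6 and plek in being almost without reads in replicate 2 at 72 hpf.

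coro1a encodes an actin-binding coronin of leukocytes, on chromosome 3 from 30926364 to 30941362. It had 172, 265 and 363 counts at 48 hpf against 0, 70 and 0 at 72 hpf, with a pooled ratio of 10.2 (8.01 to 13.3). Over 639 bases it overlaps cldni, an epidermal claudin gene on the opposite strand, which had 457, 235, 11, 3, 189 and 424 counts over the 6 libraries. Replicate 3 at 72 hpf, with 424 counts of cldni, had 0 of coro1a, and replicate 3 at 48 hpf, with 11 of cldni, had the most of coro1a. Reads that overlap more than 1 gene had been left out of the counts, and whether counting used strand is not given in the sources used here.

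lcp1 encodes L-plastin, the actin-bundling protein of leukocytes, on chromosome 9 from 56251000 to 56272465. It had 468, 693 and 890 counts at 48 hpf against 5, 81 and 0 at 72 hpf. Its 5 reads in replicate 1 at 72 hpf are the only value of the 9 genes above the floor in replicates 1 and 3 of that stage. The mean was 154 ± 75.9 CPM (SD, n = 3) at 48 hpf and 6.41 ± 10.2 CPM (SD, n = 3) at 72 hpf, and the pooled ratio was 21.4 (17.2 to 26.8).

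Counted over the 9 genes, 8 had every 72 hpf library below every 48 hpf library, where 9.33% of the 16073 genes tested did so. At or under the floor in all 3 libraries at 72 hpf were 4 of the 9 (spi1b, ncf1, ptpn6 and plek), and 1.17% of all genes tested were so while above the floor in every 48 hpf library. Without replicate 2 of that stage this count was 8 of 9, against 2.83% of all genes. The quasi-likelihood test of edgeR, adjusted by the Benjamini-Hochberg method, called 0 of the 9 lower (0% of all genes), and 7 of 9 had an unadjusted p-value under 0.05 (5.64% of all genes). It called 0 of the 9 higher, and 1 gene in all (0.00622%). DESeq2 called the same 4 genes as the floor count (3.02% of all genes), limma with voom called 0, and edgeR with no filter on low counts called 4 (0.0422% of all genes). DESeq2 without replicate 2 at 72 hpf called all 9 (5.76% of all genes). Because the stage values chose the genes, nothing is read from these counts. The fitted log2 fold changes, 72 over 48 hpf, had a median of -4.58 over the 9 genes and of -0.02 over all genes tested. Those of the 5 genes above the floor in replicate 2 at 72 hpf were -4.58 for lcp1 (SE 1.24), -4.01 for ptprc (SE 1.69), -3.77 for mpeg1.1 (SE 1.61), -3.53 for coro1a (SE 1.64) and -2.50 for csf1ra (SE 1.71).

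The 48 hpf libraries were not alike in these genes. All 9 were highest in replicate 3 in CPM, although csf1ra was nearly as high in replicate 1, at 26.0 against 26.3 CPM. Replicate 1 was lowest for 5 genes and replicate 2 for spi1b, plek, mpeg1.1 and csf1ra. The highest library was 2.39 (ncf1) to 4.07 (plek) times the lowest, with a median of 3.13 over the 9 genes, compared with 1.78 over the 13530 tested genes with no zero at 48 hpf. Replicate 3 was the smallest 48 hpf library, with 3694451 counts against 4723024 and 5629941 in replicates 1 and 2. In raw counts, not CPM, ncf1 and ptprc were highest in replicate 2 and csf1ra in replicate 1. The part of library size in this spread was not tested. As a sum, red cell genes were also highest in replicate 3. The 11 genes of an erythrocyte list summed to 16.5 and 23.3 CPM in replicates 1 and 2 but to 639 CPM in replicate 3. Not each of them was highest there, since hemgn had 34, 23 and 0 counts and hbbe2 had 0, 11 and 4 in replicates 1, 2 and 3. The part of red cell genes in the level of the 9 genes was not tested. Replicate 3 was also the 48 hpf library sorted on 1 instrument only, and the part of the sorter in this spread was not tested. A fit with the sorter as a covariate was run for the stage difference only.

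The make-up of the 9-gene sum also differed between libraries. lcp1 took the largest share in each 48 hpf library, with 24.6%, 28.4% and 24.4%. plek took 17.0% and 15.5% in replicates 1 and 3 but 8.68% (Wilson 95% interval 7.63 to 9.86) in replicate 2. ncf1 showed the opposite order, with 7.57% and 7.37% in replicates 1 and 3 and 13.4% (12.1 to 14.8) in replicate 2. csf1ra took 6.46% (5.44 to 7.66) in replicate 1, 1.64% (1.21 to 2.22) in replicate 2 and 2.66% (2.18 to 3.23) in replicate 3. These intervals cover read counting only and leave out the sampling of cells and the amplification. The shares are thus a description, and whether the cells differed in their mixture was not tested.

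**Figure D2:**
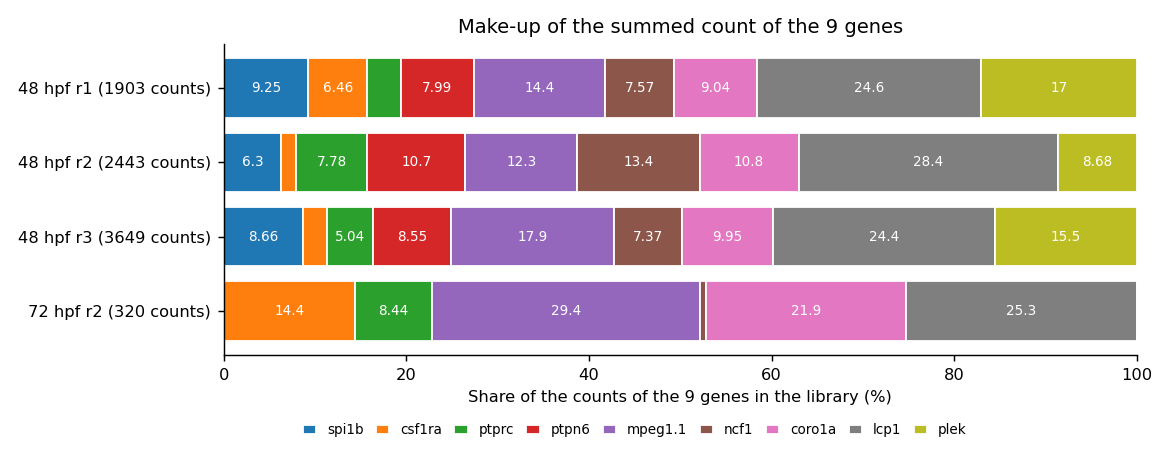
Share of each of the 9 genes (coloured segments, percent, horizontal axis) in their summed count in the 3 libraries at 48 hpf and in replicate 2 at 72 hpf, with the summed count beside each library. In replicate 2 at 72 hpf the segments of spi1b, ptpn6 and plek are missing and that of ncf1 is 0.625%, while csf1ra, mpeg1.1 and coro1a take 14.4%, 29.4% and 21.9%.

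Replicate 2 at 72 hpf had other shares of several of the 9 genes than any 48 hpf library, in reads that are few. Of its 320 counts, plek, spi1b and ptpn6 had 0, which allows a share of up to 0.938% each at a floor of 3 counts, where their shares at 48 hpf were 6.30% to 17.0%. csf1ra took 14.4% (Wilson 95% interval 10.9 to 18.6) there, above its share in each of the 48 hpf libraries. As a share of each gene's own 48 hpf mean CPM, this library held 52.0% for csf1ra, 25.9% for coro1a, 22.0% for mpeg1.1, 18.4% for ptprc, 11.8% for lcp1 and 0.833% for ncf1. Red cell, endothelial and fibroblast lists were also present in this library, at 148, 282 and 1638 CPM, against 15.0 to 24.6, 28.2 to 58.6 and 309 to 1944 CPM in the other 72 hpf libraries, and their part in the counts of the 9 genes was not tested.

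Several of the 9 have a close relative in the zebrafish genome, and the relatives did not all follow them. spi1a, the other spi1 gene, had 91, 171 and 328 counts at 48 hpf against 0, 83 and 2 at 72 hpf, so that replicate 2 at 72 hpf held 83 counts of spi1a and 0 of spi1b. csf1rb, the second Csf1 receptor gene, had 0, 0 and 136 counts at 48 hpf against 1, 28 and 0 at 72 hpf, and was thus not detected in the 48 hpf replicate with 123 counts of csf1ra. mpeg1.2 had 13, 104 and 100 counts at 48 hpf against 0, 83 and 0 at 72 hpf, and was close to mpeg1.1 in replicate 2 at 72 hpf (83 and 94 counts) where it was far below it in replicate 1 at 48 hpf (13 and 274). These are raw counts that were not corrected for gene length, and multi-mapping reads had been removed, so reads shared by near-identical copies are missing from both members of a pair.

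**Figure D3:**
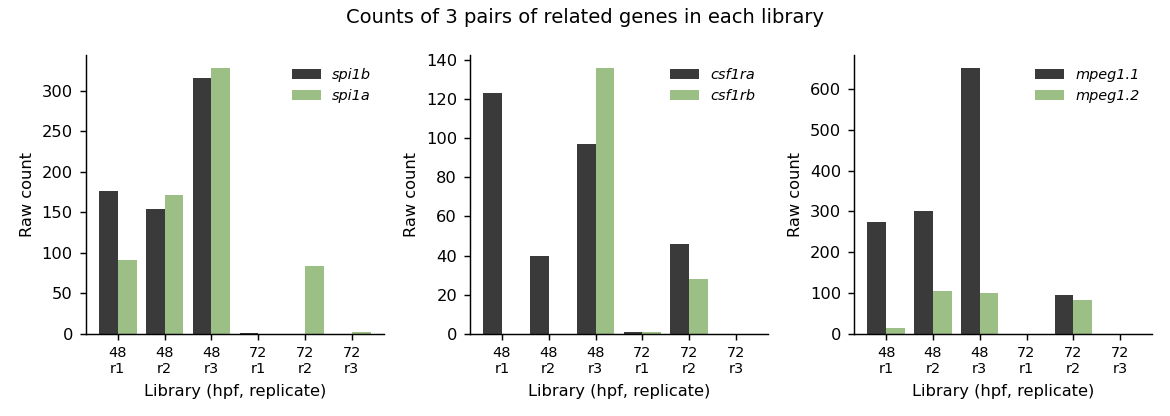
Raw counts (vertical axis) of spi1b and spi1a, csf1ra and csf1rb, and mpeg1.1 and mpeg1.2 in the 6 libraries, labelled by stage and replicate. In replicate 2 at 72 hpf spi1a has 83 counts and spi1b has 0, while both genes of each of the other pairs have counts.

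A list of other macrophage genes was chosen, like the 9, with earlier results of these data known, so its values are a description. Of its 16 genes, 15 were tested, and 4 of these had reads at 48 hpf only and so passed the low-count filter through that stage. All 15 had a lower estimate at 72 hpf, where 51.6% of all genes tested did. Their median fitted log2 fold change was -2.50. edgeR called 0 of them, with 7 at an unadjusted p-value under 0.05 (5.64% of all genes), and DESeq2 called 5 of the 14 it tested, against 3.02% of all genes (cxcr3.2, c1qb, c1qc, ccl34b.1 and lgals3bpb). The chemokine receptor gene cxcr3.2 had 68, 111 and 54 counts at 48 hpf against 0, 1 and 0 at 72 hpf (DESeq2 adjusted p = 8.1e-05, edgeR adjusted p = 0.319). The complement gene c1qc had 23, 115 and 35 counts at 48 hpf and 0 in all 72 hpf libraries, at least 51.7-fold lower there (DESeq2 adjusted p = 0.00043, edgeR adjusted p = 0.399). In contrast, c1qa had 20, 67 and 49 counts at 48 hpf against 17, 73 and 19 at 72 hpf, with no call by either tool. cd74a, which was not tested, had 0 counts in all 48 hpf libraries and 0, 15 and 1 at 72 hpf. mfap4, a further macrophage marker, had 215, 260 and 303 counts against 0, 144 and 0, and havcr1 had 140, 224 and 385 against 0, 145 and 0, both with the zeros of mpeg1.1 in replicates 1 and 3. slc7a7, a cationic amino acid transporter gene, had 176, 247 and 536 counts at 48 hpf against 18, 0 and 0 at 72 hpf, and so its reads lay in replicate 1 and not in replicate 2.

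Genes that work with the 9 were read from 6 further lists, also chosen with earlier results of these data known. Among receptor signalling genes of leukocytes, where ptprc and ptpn6 act, 13 of 16 were tested, the median log2 fold change was -5.18, and DESeq2 called 5 of 12 lower, against 3.02% of all genes (itgb2, dok2, lcp2a, pik3r5 and sla1a). itgb2, the shared β2 integrin chain of leukocytes, had 94, 98 and 131 counts at 48 hpf against 1, 2 and 0 at 72 hpf (DESeq2 adjusted p = 1.5e-06, edgeR adjusted p = 0.287). dok2, a docking protein below tyrosine kinases, had 141, 72 and 200 counts against 0, 1 and 0 (DESeq2 adjusted p = 5.2e-07, edgeR adjusted p = 0.198). In replicate 2 at 72 hpf both were thus as sparse as ncf1, while syk, a tyrosine kinase of the same list, had 40 counts there and 0 in replicates 1 and 3. Estimates were lower for 12 of the 13 tested genes and higher for 1. The higher one was the lyn entry with the highest mean CPM of the list, with 162, 168 and 177 counts against 112, 154 and 305. Another lyn entry was sparse, with 0, 35 and 18 counts against 1, 0 and 0, and its value is the list median. plcg2 kept reads in every library, with 76, 68 and 48 counts against 49, 40 and 39.

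Among actin genes of leukocytes, the group of coro1a and lcp1, DESeq2 called 4 of 11 lower, against 3.02% of all genes (arpc1b, capgb, myo1f and wasb) with a list median of -1.60. arpc1b, a subunit of the Arp2/3 complex, kept reads in every library at the later stage, which none of the 9 did, with 493, 564 and 800 counts at 48 hpf against 88, 118 and 149 at 72 hpf. Its log2 fold change was -2.29 with an SE of 0.43 (DESeq2 adjusted p = 2.6e-07, edgeR adjusted p = 0.297). cotl1, from the same list, had 763 to 944 counts in all 6 libraries. All 11 tested genes of the list had a lower estimate, but several others kept reads throughout. lsp1b had 361, 726 and 324 counts against 208, 337 and 328, and rac2 had 236, 181 and 237 against 202, 200 and 109. hcls1 had 110, 148 and 234 counts against 19, 3 and 133, and arhgdig had 179, 247 and 343 against 13, 76 and 137. At 72 hpf both were highest in replicate 3, the library with 0 counts of all 9 genes. The membrane subunits of the oxidase that ncf1 serves also kept reads in every 72 hpf library. cyba had 107, 169 and 118 counts at 48 hpf against 49, 110 and 35 at 72 hpf, and cybb had 114, 112 and 109 against 6, 65 and 11, and neither gene was called by DESeq2 (adjusted p = 0.470 and 0.213) or by edgeR.

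Transcription factors of the myeloid list other than spi1b gave a median of -1.54. Of these, 0 of 10 were called lower by edgeR (0% of all genes) or by DESeq2 (3.02% of all genes). An unadjusted edgeR p-value under 0.05 was reached by 1 of them, as by 5.64% of all genes. cebpa, a myeloid factor that other tissues also express, had 360, 584 and 579 counts at 48 hpf against 235, 819 and 202 at 72 hpf. mafbb, a Maf factor of macrophages, had 178, 205 and 359 against 30, 142 and 38. Of phagosome and lysosome genes, which most cells express, DESeq2 called 5 of 14 lower (grna, lgmn, ctsc, ctsz and ctsba), against 3.02% of all genes, with a list median of -0.75. The protease gene lgmn kept 803, 704 and 486 counts at 72 hpf after 1282, 1287 and 1368 at 48 hpf. grna, one of the zebrafish granulin genes, was almost without reads at 72 hpf, with 91, 150 and 400 counts at 48 hpf against 0, 1 and 0 at 72 hpf (DESeq2 adjusted p = 1.9e-08, edgeR adjusted p = 0.173). Another granulin gene, grnb, kept 163, 93 and 178 counts at 72 hpf after 179, 262 and 271, with no call by either tool. Of colony-stimulating factor, chemokine and cytokine genes, 10 of 15 were tested with a median of -3.03, and DESeq2 called 2 of 7, against 3.02% of all genes (cxcr3.2 and il10ra). Estimates were lower for 9 of the tested genes and higher for il34, with 18, 27 and 36 counts against 0, 90 and 0. cxcr3.3, the highest of the list by mean CPM, kept 128, 194 and 81 counts at 72 hpf after 53, 402 and 277. cxcr4b kept 27, 109 and 33 after 152, 191 and 1, and neither tool called it or cxcr3.3. csf1a and csf1b, not tested, had reads in replicate 3 at 72 hpf only, with 9 and 8 counts. il1b, the gene of an inflammatory cytokine, had 2, 443 and 456 counts at 48 hpf against 1, 153 and 0 at 72 hpf, an order that none of the 9 genes had, since all 9 were present in replicate 1 at 48 hpf.

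Pooling all these lists with those of neutrophils, other leukocytes and lymphoid cells, and without the 9, gave 104 genes, of which 86 were tested. Since the lists were chosen with earlier results known, nothing is read from the counts that follow. The estimate at 72 hpf was lower for 82 of these and higher for 4, and the median log2 fold change was -2.24. Stages did not overlap, with the later one lower, for 35 of the 86, against 9.33% of all genes. edgeR called 0 of them, although an unadjusted p-value under 0.05 was reached by 32 that were lower and 1 that was higher, as by 5.64% and 3.12% of all genes. voom called 0, and DESeq2 called 22 of 76 lower (3.02% of all genes) and 1 higher (1.24% of all genes). DESeq2 called 42 of these genes lower without replicate 2 at 72 hpf (5.76% of all genes) and 15 without replicate 3 at 48 hpf (2.73% of all genes). It called 22 without replicate 1 at 48 hpf (2.27% of all genes). Of the 62 genes of the lists that were above the floor in every 48 hpf library, 32, 47 and 31 were above it in replicates 1, 2 and 3 at 72 hpf. The condition on 48 hpf favours a drop at 72 hpf. No matching share over all genes was taken, so nothing is read from these numbers.

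**Figure D4:**
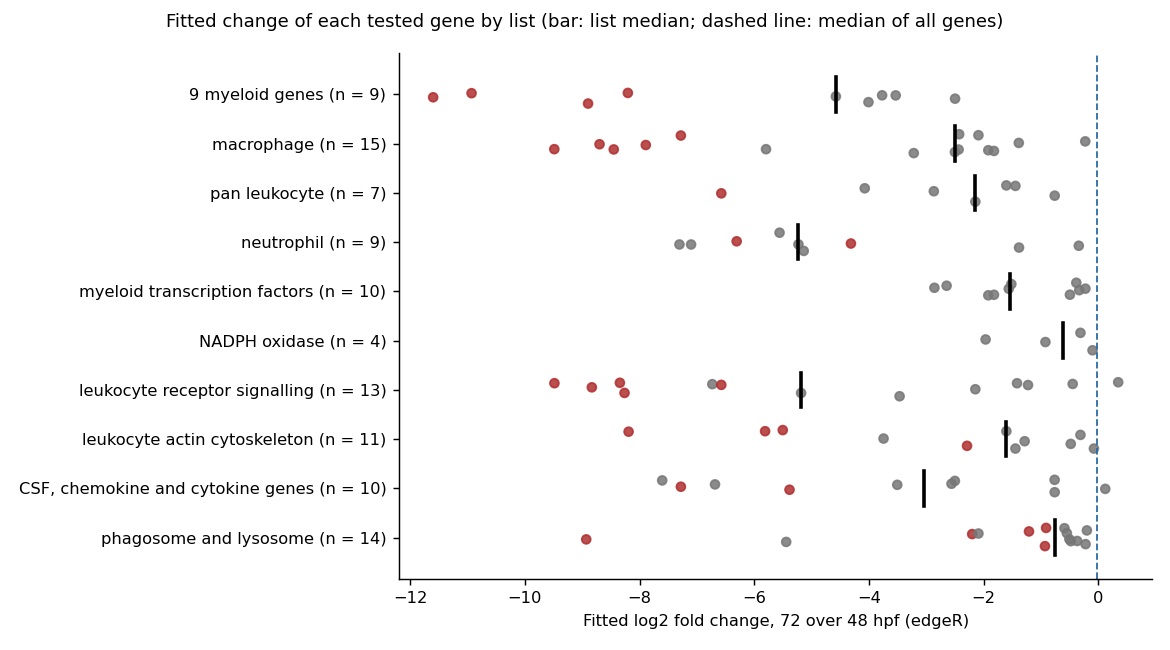
Fitted log2 fold change, 72 over 48 hpf, from edgeR (horizontal axis) for every tested gene of the 9 and of 9 lists. The lists, like the 9, were chosen with earlier results known. Red points were called lower by DESeq2 and grey points were not. Black bars are list medians and the dashed line is the median of all genes (-0.02). Values of genes with 0 counts at 72 hpf depend on the prior count of the fit and are no bound, and the median of the 9, at -4.58, is that of lcp1, which has counts at both stages.

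Marker lists of the other cells that a sort of dissected hearts could hold did not all move with the 9 genes. These lists too were chosen with earlier results known. Among neutrophil genes, mpx, the myeloperoxidase gene, had 232 counts and npsn had 351 in replicate 1 at 48 hpf, and both had 0 in replicates 2 and 3 of that stage, where the 9 genes were present. mmp9, a gelatinase gene, had 38, 138 and 1 counts at 48 hpf. In the neutrophil list, 9 of 11 genes were tested with a median of -5.23, or -5.14 with genes at 0 in the 72 hpf libraries set to their bound, and DESeq2 called 2 of 5 lower, against 3.02% of all genes (lect2l and il6r). Both were present in every 48 hpf library, as the 9 genes were, with 159, 45 and 164 counts of lect2l against 1, 18 and 0, and 118, 115 and 83 counts of il6r against 0, 0 and 3. The DESeq2 count left out mpx, lyz, npsn and cpa5, whose reads at 48 hpf lay almost only in replicate 1. All 9 tested genes had a lower estimate, but pnp5a, the highest of the list by mean CPM, kept most of its reads. It had 794, 1286 and 718 counts against 562, 826 and 589, with no call by either tool. At 72 hpf it made up 158 of the mean 164 CPM of the list. cpa5 had 120, 0 and 0 counts against 44, 1 and 0. Lymphoid genes stayed low, with summed levels of 7.62 to 40.3 CPM at 48 hpf and 6.05 to 21.0 CPM at 72 hpf and with rag1 and ikzf1 at 0 in all 72 hpf libraries. The recombinase gene rag2 went the other way, with 0 counts in all 48 hpf libraries and 39, 0 and 71 at 72 hpf (higher by DESeq2, adjusted p = 0.023, edgeR adjusted p = 0.549). The list of thrombocytes, the fish counterpart of platelets, summed to 78.8 to 126 CPM at 48 hpf and 17.4 to 109 CPM at 72 hpf. Epidermal genes summed to 148 to 1166 CPM at 48 hpf and to 3.08, 773 and 1469 CPM in the 72 hpf replicates 1, 2 and 3, and replicate 3, with the highest value, had 0 counts of all 9 genes. The endothelial list summed to 113 to 385 CPM and 28.2 to 282 CPM, and the erythrocyte list to 16.5 to 639 CPM and 15.0 to 148 CPM. DESeq2 called 1 of 7 endothelial genes lower (fli1a) and 0 of 7 erythrocyte genes, against 3.02% of all genes. Among erythrocyte genes it left out gata1a, slc4a1a, hbae3 and an entry of hbae1.3, each highest in replicate 3 at 48 hpf. Genes of other marker lists also had the zeros of ptpn6 and plek. fli1a, a transcription factor gene of the endothelial list, had 152, 333 and 165 counts at 48 hpf and 0 in all 72 hpf libraries. It was at least 194-fold lower there (DESeq2 adjusted p = 2.2e-11, edgeR adjusted p = 0.141). All 7 tested endothelial genes had a lower estimate, but other genes of that list kept reads in every library. kdrl, its highest gene by mean CPM, had 573, 1361 and 197 counts against 198, 1044 and 73. cdh5 had 47, 182 and 50 counts against 36, 116 and 26, and neither tool called kdrl or cdh5. The neuronal gene elavl3 had 135, 376 and 51 counts and the epidermal gene icn 62, 51 and 10 counts at 48 hpf, both with 0 in all 72 hpf libraries (DESeq2 adjusted p = 6.3e-09 and 0.0035, edgeR adjusted p = 0.284 and 0.411). The lists of elavl3 and icn did not fall as a whole. Estimates at 72 hpf were higher for 3 of 5 tested neuronal genes and 4 of 6 tested epidermal genes. Another neuronal gene, elavl4, had 407, 385 and 137 counts at 48 hpf against 473, 405 and 150 at 72 hpf. The part of these cells in the levels of the 9 genes was not tested.

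**Figure D5:**
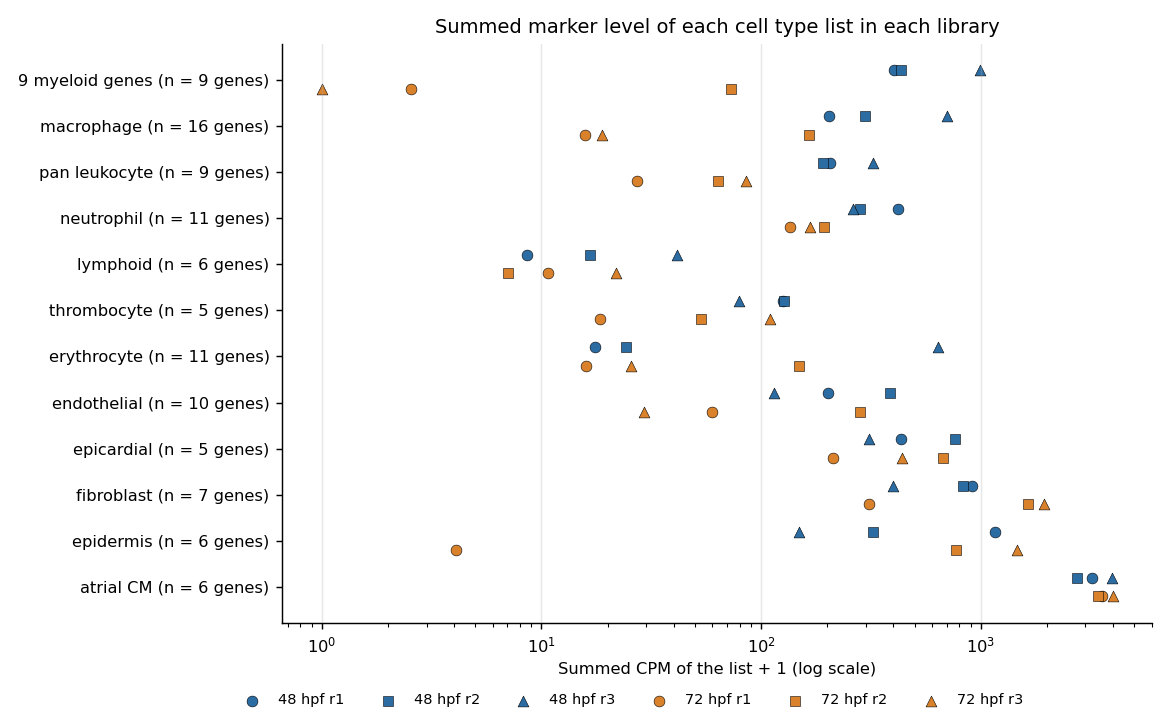
Summed CPM plus 1 (horizontal axis, log scale) of the 9 genes and of 11 marker lists in the 3 libraries at 48 hpf (blue) and the 3 at 72 hpf (orange), with a marker shape for each replicate. The 9 genes range from 0 to 988 CPM, the atrial CM list from 2746 to 4001 CPM, and the fibroblast and epidermis lists reach their highest level in replicate 3 at 72 hpf.

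The genes whose pattern was most like that of the 9 were ranked by Pearson's r between log2(normalized CPM + 1) of each gene and the mean of the 9 over the 6 libraries, among 12955 genes with a mean of at least 5 CPM. With 6 libraries and a stage difference built into the mean, 363 genes had an r above 0.9, and the order is a description only. The 12 highest were si:dkey-27i16.2 (r = 0.997), ctss2.1 (0.996), acp5a (0.996), cyp2ad3, gigyf1a, arpc5b, si:cabz01074946.1, maf1, zgc:174904, zgc:64065, CABZ01069020.1 and irx3a (0.989). Of these, 8 had 0 counts in replicates 1 and 3 at 72 hpf and 4 to 35 counts in replicate 2. ctss2.1, a cathepsin S gene, had 414, 426 and 684 counts at 48 hpf against 0, 35 and 0 at 72 hpf, and acp5a, the gene of tartrate-resistant acid phosphatase, had 156, 135 and 237 against 0, 8 and 0. The other 4 (cyp2ad3, gigyf1a, arpc5b and maf1) had 66 counts or more in every library, so they did not share the near absence at 72 hpf. cyp2ad3 had the same order of the libraries as the mean of the 9 genes. gigyf1a, arpc5b and maf1 had nearly that order, each with a Spearman rank correlation of 0.943.

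The 9 genes lie on 9 different chromosomes, and all 9 are on the minus strand, as are 50.3% of the genes in the table. Of the 6 with Gene Ontology terms in the table, 4 carried "defense response" (csf1ra, mpeg1.1, ncf1 and ptpn6), a term of 126 genes in all. Of the 4 with KEGG terms, coro1a and ncf1 were in the phagosome pathway, which has 130 genes in the table.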

How the data were processed

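Sorted atrial CMs were profiled by bulk RNA sequencing after SMART-Seq amplification. The authors deposited raw counts per gene. Per the labels and the study's methods, reads were trimmed (Trimmomatic 0.39), aligned to danRer11 (STAR 2.7.10a), freed of duplicate, multi-mapping, ribosomal and mitochondrial reads (Picard 3.0.0) and counted on exons (featureCounts 2.0.4). Removing duplicates can limit the counts of abundant genes.

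The labels gave the stage of each library. Counts at 72 and 48 hpf were compared using edgeR 4.0.16 (R 4.3.3; TMM, robust quasi-likelihood test, two-sided, Benjamini-Hochberg adjustment) over 16073 genes whose normalized counts averaged more than 5. A call needed an adjusted p-value below 0.05 and a fold change above 1.5. Alternatives were DESeq2 1.42.0, limma 3.58.1 with voom, RLE factors, other filters, no fold threshold, blocking on replicate number, a covariate for the sorter and leaving out each library. SEs are the absolute fold change over the square root of F. CPM is scaled to the library total, and intervals of pooled ratios are exact binomial.

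The 9 genes and all lists were chosen with earlier results of these data known. The rule for named genes took in the 9 genes, the 3 highest genes of each list, any gene edgeR called, genes in a sentence about their list, and the 12 nearest in pattern, and not every gene it allows is named. No sequences were used here.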

Additional observations from a re-analysis of the deposited data

How the results depend on the processing

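Of 117 fitted fold changes of the 9 genes under 13 alternatives, 21 moved by more than the replicate spread. Their direction was fixed by the choice of the genes and says nothing of stability. The log2 ratio of their summed CPM ranged from -9.62 to -4.05 when each library was left out in turn, and the lowest value was that without replicate 2 at 72 hpf. At or under the floor in all libraries at 72 hpf were 4 of the 9 genes, or 8 without that library, an alternative chosen after seeing the data. Of all genes tested, 1.17% and 2.83% were so while above the floor in every 48 hpf library.

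Over all genes, edgeR called 1 gene higher and 0 lower at 72 hpf. DESeq2 called 185 higher and 451 lower, and edgeR with no filter called 2 higher and 9 lower. voom called 0 higher and the sorter as a covariate gave 0 higher. Leaving out each library gave 0 to 1 higher. Of the genes of the pooled leukocyte lists, edgeR called 0 lower (0% of all genes) and DESeq2 22 (3.02% of all genes). The DESeq2 fits that leave out a library were also chosen after seeing the data. They called 42 without replicate 2 at 72 hpf (5.76% of all genes) and 15 without replicate 3 at 48 hpf (2.73%). Without replicate 1 at 48 hpf the number was 22 (2.27%).

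With the replicate number as a block, edgeR called 0 genes higher and 0 lower. Deviations of same-numbered libraries from their stage means correlated at -0.004, 0.106 and 0.003 over 16073 genes. Those of differently numbered libraries correlated at -0.0575 to 0.0499. With 3 libraries per stage, these values cannot settle whether the numbers pair the libraries.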
